A study of Mus musculus with 8 samples.

Results

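The 10 genes described here, *Isg15*, *Usp18*, *Isg20*, *Rsad2*, *Cmpk2*, *Mx1*, *Ifi44*, *Ifi35*, *Rtp4* and *Bst2*, encode the ISG15 modifier, its protease and other antiviral effectors induced by interferon. They are 10 of 21938 protein-coding genes of the mouse annotation. Their H3K9ac peaks, within 1 kb of any TSS and in the gene body, were compared between curcumin and vehicle in BM cells of 3 genotypes. The genes were chosen from the presence, width, fold enrichment and rank of these same peaks, so those values are a description and carry no test.

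ChIP-seq of H3K9ac, an acetylation of histone H3 found at active promoters, had been carried out on whole, frozen BM cells of C57BL/6 mice. All groups carried the *NUP98-HOXD13* transgene, a fusion gene used as a model of MDS that progresses to AML, and they differed in the allele of *GFI1*, a transcriptional repressor of blood cells. There was 1 library each of *GFI1-36S* with vehicle, *GFI1-36S* with curcumin, *GFI1-36N* with vehicle, *GFI1-36N* with curcumin, *GFI1-KD* with vehicle and *GFI1-KD* with curcumin, where *GFI1-KD* denotes reduced expression of *GFI1*. Curcumin, a plant polyphenol and inhibitor of histone acetyltransferases, was injected i.p. each week at 20 mg/kg, and vehicle-treated mice received DMSO. The age of the mice and the number of mice per library are not given in the sources used here. By the names of the lists, the *GFI1-36N* mouse was heterozygous in the vehicle library and homozygous in the curcumin library, which the labels do not state. If so, zygosity and treatment cannot be told apart in any *GFI1-36N* difference below between curcumin and vehicle. There is 1 library per group, so the spread between mice is unknown and p-values are absent. Because whole BM was used, fewer cells of a type and less acetylation per cell cannot be told apart.

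Type I interferons bind the IFNAR receptor and act through the kinases JAK1 and TYK2 and a transcription factor complex that contains IRF9. This complex binds the interferon-stimulated response element (ISRE) in the promoters of its target genes, and the gamma-activated sequence (GAS) is a further motif of interferon responses. ISG15 is a ubiquitin-like protein that is joined to other proteins by UBA7, UBE2L6 and an HERC-type ligase. USP18 removes it again and also dampens signalling at the receptor. In BM, interferon is known for driving haematopoietic stem cells out of quiescence.

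The promoters of the members with an ISRE core are shown because they place the binding motif beside the peaks. RefSeq promoters for GRCm38.p6, covering 250 bases before to 50 after the start, were matched for 7 of the 10 genes. No sequence was matched for *Usp18*, *Rtp4* and *Mx1*. The ISRE core searched was GAAA, any 2 bases and GAAA, and the GAS was TTC, any 3 bases and GAA, on both strands, with capitals marking every match and a palindromic match counted once. Overlapping matches run together as 1 block of capitals.
Isg15, minus strand, chr4:156200769-156201068: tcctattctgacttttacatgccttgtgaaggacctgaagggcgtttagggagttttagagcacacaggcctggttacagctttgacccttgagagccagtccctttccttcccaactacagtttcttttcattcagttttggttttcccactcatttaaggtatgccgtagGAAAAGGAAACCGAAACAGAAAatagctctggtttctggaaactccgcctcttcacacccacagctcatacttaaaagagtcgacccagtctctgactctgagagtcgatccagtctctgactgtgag
Rsad2, minus strand, chr12:26456403-26456702: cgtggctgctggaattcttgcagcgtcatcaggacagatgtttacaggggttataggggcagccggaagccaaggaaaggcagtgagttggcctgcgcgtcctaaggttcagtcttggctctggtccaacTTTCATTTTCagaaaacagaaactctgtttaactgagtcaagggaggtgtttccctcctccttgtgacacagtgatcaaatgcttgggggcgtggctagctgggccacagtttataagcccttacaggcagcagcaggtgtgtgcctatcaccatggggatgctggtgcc
Bst2, minus strand, chr8:71537423-71537722: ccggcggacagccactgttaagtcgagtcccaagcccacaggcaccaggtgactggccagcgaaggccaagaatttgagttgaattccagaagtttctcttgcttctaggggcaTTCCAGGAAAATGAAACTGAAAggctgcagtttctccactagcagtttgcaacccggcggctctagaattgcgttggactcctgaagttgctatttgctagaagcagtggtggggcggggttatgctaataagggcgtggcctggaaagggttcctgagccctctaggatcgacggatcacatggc
*Isg15* held 3 overlapping ISRE cores between −78 and −57 from the start. *Bst2* held 2 that overlapped each other between −130 and −115, the first of them also overlapping a GAS at −136. *Rsad2* held 1 at −120 in the reverse orientation. An ISRE core was thus found in 3 of the 9 promoters matched for the 7 genes, against 3.44% of all 32851 promoters of this length. A GAS was found in 3 of these 9 promoters, 1 each of *Isg20*, *Bst2* and *Ifi35*, against 8.30% of all promoters. A match is a description of the letters and not evidence of binding. The ratio of observed to expected CpG had a median of 0.29 over the 9 promoters of the 7 genes and of 0.38 over all promoters.

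The 6 lists held between 20354 and 49213 peaks, and the median summit held between 24 and 36 fragments. Fragments at a summit were recovered from the fold enrichment and p written by the authors' peak caller, and the genome background of a library was between 4.61 and 6.13 fragments. The library labelled *GFI1-36S* curcumin stood apart. It had the fewest peaks and was the only one with peaks on chromosome Y, 3 in number. T cell markers had a promoter peak for 8 of 8 genes in it and for 3 of 8 in *GFI1-36S* vehicle, whereas neutrophil markers had one for 0 and 8 of 8, and monocyte markers for 0 and 6 of 6. The names of the *GFI1-36S* lists also carry the opposite treatments to the labels. The labels were followed, and each *GFI1-36S* difference below between curcumin and vehicle rests on this library and on these labels. Such a difference has the opposite sign if the treatments are exchanged. In the *GFI1-36N* pair, neutrophil markers had a promoter peak for 7 of 8 genes with either treatment, monocyte markers for 6 and 5 of 6, erythroid markers for 5 and 3 of 6 and T cell markers for 5 and 2 of 8. In the *GFI1-KD* pair, the neutrophil count went from 8 to 4 of 8, the erythroid count from 6 to 3 of 6 and the T cell count from 2 to 1 of 8, and monocyte markers had 6 of 6 with either treatment. In the 3 pairs as labelled, B cell markers had 1 and 0, 1 and 1, and 3 and 1 of 6 in *GFI1-36S*, *-36N* and *-KD*, and progenitor markers 5 and 1, 6 and 5, and 6 and 6 of 6. By rank, the markers with a peak in the *GFI1-36N* pair had median changes of 6.22 for neutrophil, −11.03 for monocyte, 7.06 for erythroid, −2.39 for T cell and 1.48 for progenitor genes. In the *GFI1-KD* pair these medians were −21.31, 4.68, −17.75, −1.26 and 1.26. Of the 6 progenitor genes in that pair, 3 ranked lower with curcumin and 3 higher. The widest of these changes, named after the values were seen, was that of *Hoxa9*, from 11 to 99.19. The neutrophil and erythroid medians in *GFI1-KD* mice were thus about as low as that of the 10 genes, −19.17, and the monocyte median in *GFI1-36N* mice was also below 0. The part of these markers in the results below was not tested.

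To ask how curcumin and H3K9ac at these promoters went together, each gene's strongest promoter peak was placed by its fold enrichment among all promoter peaks of that library, on a rank scale from 0 for no peak to 100 for the strongest. In *GFI1-36N* mice, 10 of 10 members ranked lower with curcumin, against 39.9% of all genes with a promoter peak in the pair. In *GFI1-KD* mice, 8 of 9 members with a peak ranked lower, against 62.9%, and in *GFI1-36S* mice 8 of 9, against 69.1%. The median change was −22.7 in *GFI1-36N*, −19.17 in *-KD* and −22.4 in *-36S* mice, where all genes had medians of 1.89, −2.34 and −6.61. The changes ran from −47.93 to −4.62 in *GFI1-36N*, from −51.21 to 4.42 in *GFI1-KD* and from −39.29 to 0.18 in *GFI1-36S* mice.

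A rank lower by 10 or more was found for 9 of 10 members in *GFI1-36N* mice, against 11.3% of all genes. In *GFI1-KD* mice it was found for 7 of 9, against 20.6%, and in *GFI1-36S* mice for 6 of 9, against 41.4%. Of the 9 members with a peak in both the *GFI1-36N* and the *GFI1-KD* pair, 8 ranked lower in both, against 24.9% of all genes, and 7 ranked lower in all 3 pairs as labelled, against 18.5%. The exceptions were *Bst2*, which ranked higher in *GFI1-KD* mice, and *Usp18*, which ranked 0.18 higher in *GFI1-36S* mice, a sign that turned under other settings.

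**Figure D1:**
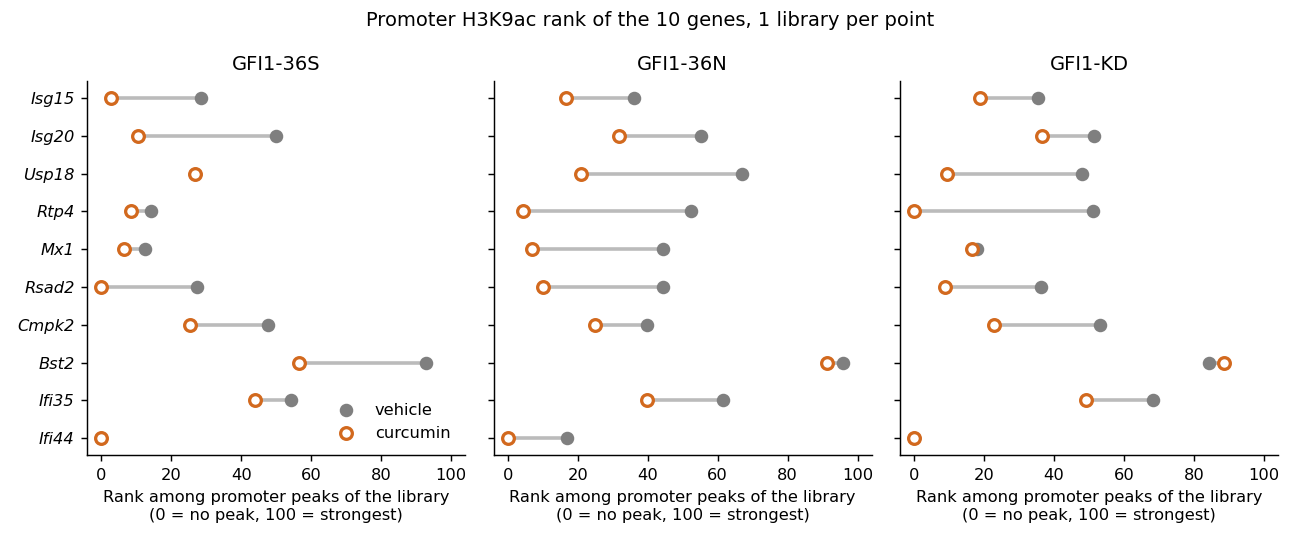
Rank of the strongest promoter peak of each gene (x axis, 0 for no peak to 100 for the strongest) with vehicle (filled grey) and curcumin (open orange), 1 library per point and 1 panel per genotype. In *GFI1-36N* mice all 10 open points lie left of the filled ones, and *Bst2* stays above 90.

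A promoter peak was listed with vehicle alone at 1 member per genotype, a different gene each time. *Ifi44* had a peak with vehicle alone in *GFI1-36N* mice, where 1.84% of all genes did. *Rtp4* had one with vehicle alone in *GFI1-KD* mice, where the share of all genes was 6.73%, and *Rsad2* in *GFI1-36S* mice, where it was 16.2%. No member had a peak with curcumin alone, for which the share of all genes was not computed.

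*Isg15* encodes the ubiquitin-like modifier itself. Its strongest promoter peak had a fold enrichment of 13.79 with vehicle and 3.92 with curcumin in *GFI1-36S*, 14.23 and 8.36 for *-36N*, and 16.69 and 9.95 for *-KD* mice. These values corresponded to ranks of 28.4 and 2.72, of 36.15 and 16.58, and of 35.33 and 18.73. In *GFI1-36N* and *-KD* mice, both vehicle libraries were thus above both curcumin libraries. The *GFI1-36S* library with the rank of 2.72 was below all of them, whichever treatment it had. The peak spanned 1609 and 253 bp, 1880 and 871 bp, and 2005 and 738 bp in the same order. The summit lay upstream, at −229 to −171 bp from the TSS in every library, so that the peak narrowed around a summit that stayed in place. In the library labelled *GFI1-36S* curcumin, the remaining peak ended 128 bp upstream of the TSS and covered none of the 3 ISRE cores, which the peaks of the other 5 libraries covered. A further peak in the gene body, 963 bp wide, was listed in *GFI1-KD* vehicle alone.

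*Usp18*, the protease that removes ISG15, had a wider change in rank in *GFI1-36N* mice than *Isg15*. Its fold enrichment with vehicle and curcumin was 13.19 and 8.92 in *GFI1-36S*, 21.41 and 10.56 for *-36N*, and 21.12 and 6.01 for *-KD* mice. The rank went from 66.85 to 20.86 in *GFI1-36N* and from 48.1 to 9.43 in *GFI1-KD* mice, but was 26.71 and 26.89 in *GFI1-36S* mice. With curcumin in *GFI1-KD* mice, the strongest peak spanned 746 bp, against 3015 bp with vehicle, and ended 31 bp upstream of the TSS.

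The 4 genes of the list for ISG15 conjugation, which moves ISG15 onto its targets, ranked lower with curcumin in every genotype. Of all genes, 39.9% did so in *GFI1-36N*, 62.9% in *-KD* and 69.1% in *-36S* mice. The median change of the 4 genes was −11.13 in *GFI1-36N* mice, −7.76 in *-KD* and −16.85 in *-36S* mice, against 1.89, −2.34 and −6.61 for all genes. The widest changes in *GFI1-36N* mice were found at *Herc6*, the ISG15 ligase of the mouse, from 64.54 to 30.75, at *Trim25*, an E3 ligase that activates RIG-I, from 94.7 to 78.27, and at *Uba7*, the activating enzyme, from 35.08 to 29.25. In *GFI1-KD* mice, the changes of these 3 genes were −3.95, −6.89 and −17.04. All 4 conjugation genes kept a promoter peak in the *GFI1-36N* and *GFI1-KD* pairs.

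Of the antiviral enzymes, *Isg20* encodes a 3′ to 5′ exonuclease that degrades RNA. Its peak was among the widest of the members, with 4358 and 676 bp in *GFI1-36S*, 3236 and 2521 bp for *-36N*, and 4731 and 2416 bp for *-KD* mice. The rank with vehicle and curcumin was 49.78 and 10.49 in *GFI1-36S*, 55.4 and 31.96 for *-36N*, and 51.39 and 36.48 for *-KD* mice. The *GFI1-36N* and *-KD* vehicle libraries again lay above both curcumin libraries of these genotypes. The GAS in its first RefSeq promoter was covered by the strongest peak in 5 libraries and not in the library labelled *GFI1-36S* curcumin.

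*Rsad2* encodes viperin, an enzyme that makes a chain-terminating nucleotide. Its fold enrichment was 13.45 with vehicle in *GFI1-36S* mice, 16.24 and 5.54 with vehicle and curcumin for *-36N*, and 17.1 and 5.95 for *-KD* mice, and no peak was listed for *GFI1-36S* curcumin. The summit held 112 and 31 fragments in *GFI1-36N* and 124 and 38 fragments in *GFI1-KD* mice. Peaks in the gene body beyond the promoter window were listed at 2, 3 and 3 positions in the *GFI1-36S*, *-36N* and *-KD* vehicle libraries and in no curcumin library.

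*Cmpk2*, a mitochondrial nucleotide kinase that supplies the substrate of viperin, starts 12752 bp from *Rsad2* and is transcribed away from it. No peak covered both promoter windows. The *Cmpk2* peak spanned 2665 and 856 bp in *GFI1-36S*, 2381 and 1330 bp for *-36N*, and 5097 and 1413 bp for *-KD* mice. Its rank was 47.62 and 25.22, 39.81 and 24.88, and 53.03 and 22.76 in these pairs. The summit stayed downstream of the TSS, at 368 to 415 bp in every library.

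The whole interval from the 3′ end of *Rsad2* to the 3′ end of *Cmpk2* (mm10 chromosome 12, 26442746 to 26479837) was compared because the neighbours are both members. In *GFI1-36N* mice, peaks covered 20.1% of its 37092 bp with vehicle and 6.3% after curcumin. The shares were 31.8% and 6.5% in *GFI1-KD*, and 15.9% and 3.6% in *GFI1-36S* mice. Its peaks numbered 8 with vehicle against 3 with curcumin for *GFI1-36N*, 10 and 3 in *GFI1-KD* and, as labelled, 5 and 3 in *GFI1-36S* mice. One site between the genes, with its summit 3658 to 4065 bp upstream of the *Rsad2* TSS, had a peak in all libraries but *GFI1-KD* curcumin. There it spanned 848, 982 and 1042 bp in the *GFI1-36S*, *-36N* and *-KD* vehicle libraries, and 243 and 259 bp in the *GFI1-36S* and *-36N* curcumin libraries. A further site, 10504 to 10538 bp upstream, had a peak in *GFI1-36N* vehicle, *GFI1-KD* vehicle and *GFI1-KD* curcumin. Its fold enrichment in these was 4.459, 4.397 and 4.815, and its width 426, 321 and 235 bp. Another peak, 11055 bp upstream, was listed in *GFI1-KD* vehicle alone.

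**Figure D2:**
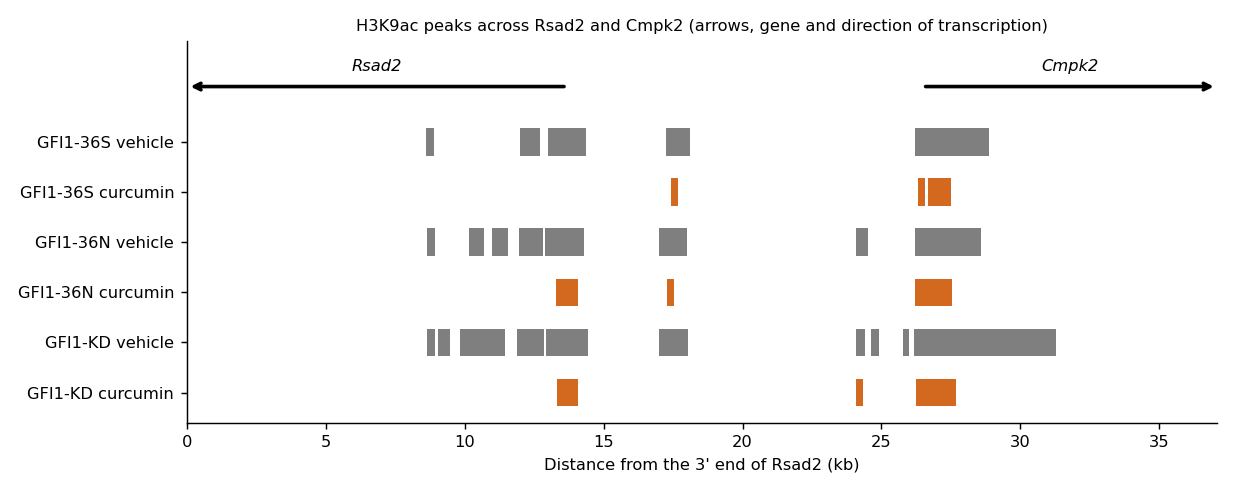
H3K9ac peaks (bars) across *Rsad2* and *Cmpk2* in the 6 libraries, by distance in kb from the 3′ end of *Rsad2*, with vehicle in grey, curcumin in orange and arrows for the direction of transcription. The *GFI1-36N* and *-KD* vehicle libraries hold 8 and 10 peaks and their curcumin libraries 3 each, and no curcumin bar lies within *Rsad2* away from its start.

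*Mx1* encodes a dynamin-like GTPase that blocks viral replication, although C57BL/6 mice are known to carry an allele with missing exons. Its promoter varied among the vehicle libraries, with ranks of 12.35 in *GFI1-36S*, 44.53 in *GFI1-36N* and 18.03 in *GFI1-KD*. With curcumin the ranks were 6.35, 7.01 and 16.67. The change was thus wide in *GFI1-36N* mice and −1.36 in *GFI1-KD* mice, where its sign turned with equal numbers of top peaks. The strongest *GFI1-36N* peak shrank from 4468 to 926 bp and the *GFI1-KD* peak from 3736 to 1385 bp, while the *GFI1-36S* peaks spanned 769 and 849 bp.

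*Ifi44*, a cytoplasmic protein with a GTP-binding motif, had a promoter peak in the *GFI1-36N* vehicle library alone. This peak spanned 1453 bp, ranked at 16.84 and held 55 fragments at its summit. The other 5 libraries listed no peak in the promoter or the gene body. Whether weaker acetylation was present there was not detectable from the lists, in which the lowest fold enrichment of a promoter peak was between 2.11 and 2.44.

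*Ifi35* binds NMI and takes part in interferon responses. It kept a peak of at least 1173 bp in every library, with widths of 1523 and 1173 bp in *GFI1-36S*, 1774 and 1735 bp for *-36N*, and 1875 and 1301 bp for *-KD* mice. The rank went from 54.21 to 43.92, from 61.64 to 39.68 and from 68.32 to 49.15. In *GFI1-36N* and *-KD* mice both vehicle libraries were above both curcumin libraries by rank, as at every other member but *Bst2* and *Ifi44*. A small second peak, with its summit 4096 to 4211 bp into the gene, was listed in all 3 vehicle libraries and, with curcumin, in *GFI1-36N* alone.

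*Rtp4*, a chaperone that helps receptors reach the cell surface and restrains interferon responses, had the widest changes in rank of the 10 genes in *GFI1-36N* and *-KD* mice. Its fold enrichment was 7.91 and 5.34 in *GFI1-36S* mice, 17.96 and 3.81 in *GFI1-36N* mice, and 22.02 with vehicle in *GFI1-KD* mice, where no peak was left with curcumin. With vehicle the summit lay 767 and 778 bp downstream of the TSS in *GFI1-36N* and *-KD*, and with curcumin in *GFI1-36N* it lay 65 bp upstream. The peak spanned 3009 and 618 bp in *GFI1-36N* mice and 3286 bp in *GFI1-KD* vehicle. The rank with vehicle was 14.2 in *GFI1-36S* mice, and the curcumin rank was 8.53, an order that turned with equal numbers of top peaks per list.

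*Bst2* encodes tetherin, which holds budding virus at the cell surface and is also a marker of plasmacytoid dendritic cells. It had the strongest peak of the 10 genes in every library, with a fold enrichment of 33.6 and 13.53 in *GFI1-36S*, 32.9 and 34.27 for *-36N*, and 33.08 and 30.96 for *-KD* mice. It ranked at 95.88 and 91.26 in *GFI1-36N* mice, and at 84.22 and 88.64 in *GFI1-KD* mice, which are changes of −4.62 and 4.42. The peak spanned 3081 and 3057 bp in *GFI1-36N* and 2668 and 1824 bp in *GFI1-KD* mice. The *GFI1-36S* vehicle library had it at 92.7 and the curcumin library at 56.42. The promoter peak covered both ISRE cores of *Bst2* in all 6 libraries. Of the 6 genes listed as plasmacytoid dendritic cell markers, 3 and 2 had a promoter peak in *GFI1-36S*, 4 and 3 for *-36N*, and 3 and 3 for *-KD* mice. The list included *Clec4e*, a macrophage receptor rather than a marker of these cells, with a peak in all libraries but *GFI1-36S* curcumin. *Siglech* had a peak in *GFI1-36N* vehicle alone, at a rank of 2.47, and *Cox6a2* and *Klk1* had none.

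The narrowing was compared with that of all promoters by the reach of the strongest peak on each side of the TSS. In *GFI1-36N* mice, 9 of 9 members with a peak in both libraries had a narrower one with curcumin, against 38.8% of all genes. The peak reached less far downstream at 8 of 9, against 41.9%, and less far upstream at 8 of 9, against 38.9%. The median change in downstream reach was −862 bp for the members and 27 bp for all genes, and in upstream reach −147 bp and 22 bp. By these medians, more of the width was missing on the side of the gene body.

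In *GFI1-KD* mice, narrowing was the rule for all promoters, and the members' counts were near it. The peak was narrower at 8 of 8 members, against 88.2% of all genes, reached less far downstream at 7 of 8, against 84.1%, and less far upstream at 8 of 8, against 80.0%. The median change in downstream reach was −685 bp for the members and −182 bp for all genes, and in upstream reach −374.5 bp and −87 bp. In *GFI1-36S* mice, 6 of 8 members had a narrower peak, against 94.6% of all genes. There the peak reached less far downstream at 6 of 8, against 90.8%, and less far upstream at 8 of 8, against 92.7%. The medians there were −1136 bp for the members and −365 bp for all genes downstream, and −167 bp and −275 bp upstream.

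**Figure D3:**
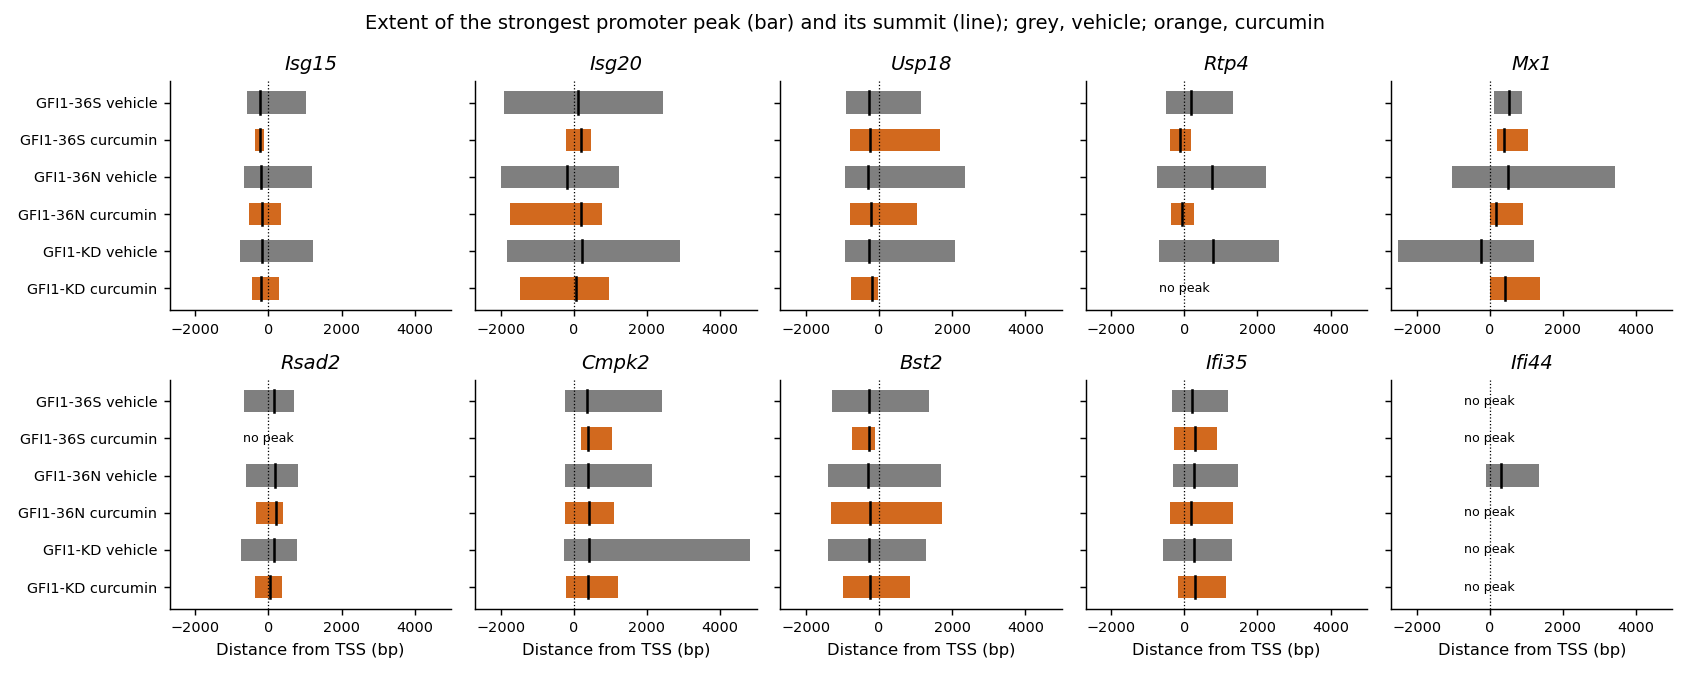
Extent of the strongest promoter peak (bars, bp from the TSS, downstream to the right) and its summit (black line) for each gene in the 6 libraries, with vehicle in grey and curcumin in orange. The *GFI1-36N* bars of *Isg15*, *Usp18*, *Rtp4*, *Mx1* and *Cmpk2* end closer to the TSS on the downstream side with curcumin, and the *GFI1-36N* bars of *Bst2* differ little, with 3081 and 3057 bp.

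Fold enrichment is relative to the local background of a library, so summit height was also computed as the fragments at the summit divided by the genome background. Each ratio of curcumin to vehicle has an exact conditional 95% interval that covers counting error only. Height is solved from the fold enrichment and p of the same peaks by which the genes were chosen. The intervals here and below thus describe those values and carry no test. In *GFI1-36N* mice, the height was lower with curcumin at 8 of 9 members, against 11.8% of all genes, and the median ratio was 0.695 for the members and 1.25 for all genes. In *GFI1-KD* mice the height was lower at 8 of 8 members, against 76.3%, with medians of 0.621 and 0.885. In *GFI1-36S* mice it was lower at 8 of 8, against 94.7%, with medians of 0.488 and 0.583. The interval of the ratio lay below 1 for 5 of 9 members in *GFI1-36N*, 6 of 8 in *-KD* and 7 of 8 in *-36S* mice. The share of all genes with an interval below 1 was not computed, so whether these counts differ from those of all genes is not known.

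The interval lay below the median ratio of all genes for 8 of 9 members in *GFI1-36N* mice, against 7.13% of all genes. It lay below for 5 of 8 in *-KD* mice, against 8.07%, and for 3 of 8 in *-36S* mice, against 13.4%. It lay above the median for no member, against 7.25%, 7.96% and 16.0% of all genes in *GFI1-36N*, *-KD* and *-36S* mice. *Bst2* was the exception in *GFI1-36N* mice, with a ratio of 1.07 (0.88 to 1.30), and in *GFI1-KD* mice its ratio was 0.957 (0.786 to 1.16). The lowest ratio in *GFI1-36N* mice was that of *Rtp4*, with 124 fragments at the summit with vehicle and 21 with curcumin, a ratio of 0.21 (0.125 to 0.335). *Mx1* followed with 0.276 (0.172 to 0.429) and *Rsad2* with 0.343 (0.222 to 0.514). *Cmpk2*, *Ifi35* and *Isg20* had ratios of 0.857, 0.926 and 0.854, with intervals that span 1. In *GFI1-KD* mice, *Usp18* had the lowest ratio, 0.279 (0.197 to 0.387), from 200 and 45 fragments, and that of *Mx1* was 0.858 (0.595 to 1.23).

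**Figure D4:**
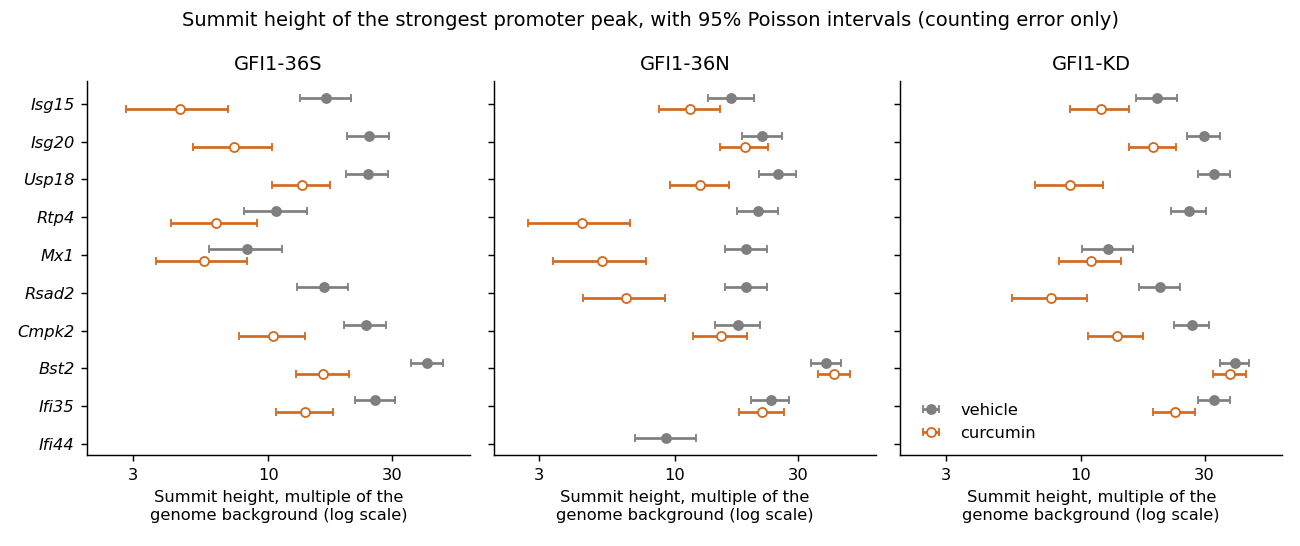
Summit height of the strongest promoter peak (x axis, multiple of the genome background, log scale) with vehicle (filled grey) and curcumin (open orange), with 95% Poisson intervals that cover counting error only. In *GFI1-36N* mice *Rtp4*, *Mx1*, *Rsad2* and *Usp18* have intervals that do not overlap, whereas the *Bst2* intervals overlap.

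The members were also compared between the libraries labelled vehicle. The median rank of the 10 genes was 27.93 in *GFI1-36S*, 48.4 in *GFI1-36N* and 49.65 in *GFI1-KD* vehicle libraries, and 9.51, 18.72 and 17.7 in the curcumin libraries. With vehicle, 9 of 10 members ranked higher in *GFI1-36N* than in *GFI1-36S* mice, against 46.4% of all genes, and 8 of 9 ranked higher in *GFI1-KD* than in *GFI1-36S* mice, against 57.3%. The exceptions were *Cmpk2* in *GFI1-36N*, with 39.81 against 47.62, and *Bst2* in *GFI1-KD* mice, with 84.22 against 92.7. By summit height, the median ratio of the members to *GFI1-36S* vehicle was 0.989 in *GFI1-36N*, against 0.818 for all genes, and of 1.24 in *GFI1-KD*, against 1.07. The height ratio in *GFI1-36N* was below 1 at *Cmpk2*, with 0.739 (0.562 to 0.972), and at *Isg20*, *Ifi35*, *Bst2* and *Isg15*, with 0.894, 0.909, 0.937 and 0.989 and intervals that span 1. The highest ratios were those of *Rtp4* and *Mx1*. The summit of *Rtp4* was 1.95 times as high (1.399 to 2.75) in *GFI1-36N* and 2.43 times as high (1.76 to 3.39) in *GFI1-KD* as in *GFI1-36S* vehicle. For *Mx1* the ratios were 2.29 (1.58 to 3.37) and 1.54 (1.04 to 2.31). The *GFI1-36S* vehicle library enters both of these comparisons, and all vehicle libraries enter the comparisons with curcumin. If the *GFI1-36S* treatments are exchanged, the other *GFI1-36S* library, where the members had a median rank of 9.51, takes its place. The comparison was not run that way.

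Other interferon-stimulated genes were read from a list of 28, of which 27 were matched and 24 had a promoter peak in each pair. With curcumin, 22 of these 24 ranked lower in *GFI1-36N* mice, against 39.9% of all genes. The count was 24 in *-KD* mice, against 62.9%, and 21 in *-36S* mice, against 69.1%. The median changes of the list were −19.29, −24.58 and −14.64. The widest changes in *GFI1-36N* mice were those of *Trim30a*, a TRIM protein that limits Toll-like receptor signalling and has near copies that can share its reads, from 89.86 to 21.54, of *Xaf1*, a pro-apoptotic factor, from 65.67 to 16, and of *Oas2*, a sensor of double-stranded RNA, from 47.1 to 0.72. In *GFI1-KD* mice *Trim30a* went from 55.15 to 21.77, *Xaf1* from 53.53 to 15.64 and *Oas2* from 39.01 to no peak.

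Receptor and signalling genes made up a further list. Of 10, 6 ranked lower with curcumin in *GFI1-36N* mice, against 39.9% of all genes. The count was 9 in *-KD* mice, against 62.9%, and 8 in *-36S* mice, against 69.1%. The median changes of the list were −3.71, −14.83 and −28.86. *Irf9*, the DNA-binding subunit of the ISRE complex, went from 87.89 to 31.44 in *GFI1-36N* and from 71.14 to 38.11 in *GFI1-KD* mice. *Irf7*, which amplifies interferon production, went from 84.35 to 55.17 and from 91.9 to 64.69. Housekeeping genes, read as a contrast, ranked lower at 4 of 10 in *GFI1-36N* mice, 7 of 10 in *-KD* and 8 of 10 in *-36S* mice, with median changes of 1.52, −2.49 and −8.88. The widest of them in *GFI1-36N* mice were *Sdha*, a subunit of succinate dehydrogenase, from 61.64 to 83.26, *Rplp0*, a ribosomal protein, from 70.54 to 90.7, and *Gapdh*, a glycolytic enzyme, from 65.67 to 82.07.

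**Figure D5:**
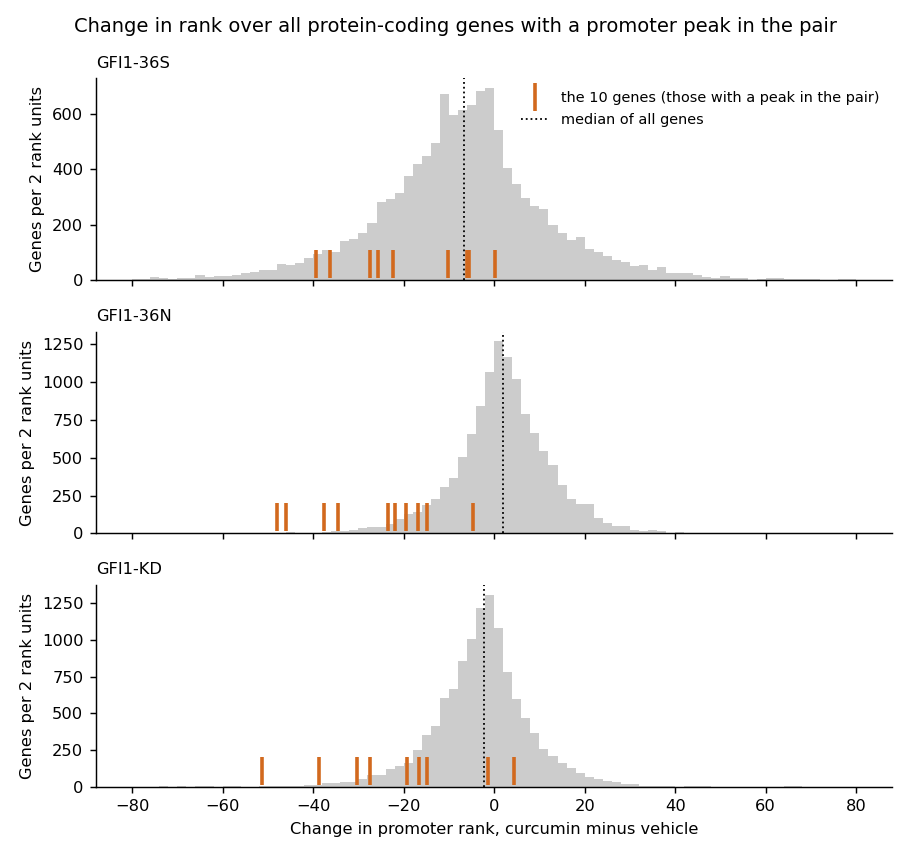
Change in promoter rank from vehicle to curcumin (x axis) over all protein-coding genes with a promoter peak in the pair (grey, genes per 2 rank units), with the members as orange ticks and the median of all genes as a dotted line. In *GFI1-36N* mice the 10 ticks run from −47.93 to −4.62, and the median of all genes is 1.89.

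The nearest protein-coding neighbours were counted to see whether the change extended along the chromosome. Neighbours were those nearest to the most upstream TSS of each member. At *Rtp4* this TSS lies at 23520291 and the TSS beside its peak at 23609925, so its neighbours may not be those of the peak. Of 18 neighbours, 9 had a promoter peak in each pair, and none shared a peak with a member. They ranked lower at 4 of 9 in *GFI1-36N* mice, 6 of 9 in *-KD* and 5 of 9 in *-36S* mice, with median changes of 0.35, −12.97 and −0.94. The shares of all genes ranked lower were 39.9%, 62.9% and 69.1%.

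The genes most like the members were found by the root mean square difference from the members' median rank over the 6 libraries. They were *Trim12c*, a TRIM protein of the same gene cluster as *Trim30a*, with a difference of 6.56, *Tagap*, a GTPase-activating protein of activated T cells, with 6.75, *Cmss1* with 7.22, *Entpd1*, the ectonucleotidase CD39, with 7.27 and *Lpcat1*, a lysophospholipid acyltransferase, with 7.42. *Trim12c* ranked at 32.93 and 0.46 in *GFI1-36S*, 44.53 and 27.7 for *-36N*, and 48.37 and 25.04 for *-KD* mice. This likeness rests on 6 libraries that the members' profile was also drawn from.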

How the data were processed

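H3K9ac ChIP-seq of 6 libraries was analysed; an input and a rabbit IgG sample were not analysed here. The authors trimmed adapters (Trim Galore), aligned to mm10 (BWA-MEM), called peaks per library (MACS2) and left out ENCODE black list regions. The version, control, threshold and duplicate handling are not given in the sources used here. The deposited lists give each peak's fold enrichment, a ratio to the local background, with its −log10 p and −log10 q and an integer score, which was not used. These values are not normalized between libraries.

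Genes and TSSs were those of the basic GENCODE annotation, release M21 (Python 3.11.15, numpy 2.4.6, pandas 2.3.3, scipy 1.17.1, matplotlib 3.10.9). A promoter peak lay, by at least 1 bp, within 1000 bp of any TSS of a coding gene. For bounds of peaks, the TSS nearest to the median summit was used. Whole fragments at the summit were solved from the fold enrichment and p that MACS2 computes from them, within 0.002 on the −log10 p scale, for 98.65% to 100.0% of peaks per library. Intervals are exact Poisson or Clopper-Pearson 95% intervals and cover counting error only. Ranking and recovery were tested on simulated data.

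The members and gene lists were chosen with earlier results of these data known. All members are named, and of each interferon and housekeeping list the 3 genes with the widest rank change in *GFI1-36N*, of which 1 is not reported here. With 1 library per group no test was made. The alternatives tried were peaks with a −log10 q from 5 up, equal numbers of top peaks, windows of 3 kb and 500 bp and the summit inside the window. Further ones were ranks by −log10 p or summit height, all biotypes, autosomes alone, exchanged *GFI1-36S* treatments and, added after seeing the data, the full annotation.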

Additional observations from a re-analysis of the deposited data

Results flagged for a closer look

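*Bst2* and *Usp18* changed rank in opposite directions in different genotypes, which is why they are listed here. The differences were not tested, since there is 1 library per group. The change of *Bst2* was −36.28 with *GFI1-36S*, −4.62 with *GFI1-36N* and 4.42 with *GFI1-KD*, so that *GFI1-KD* exceeded *GFI1-36S* by 40.7 and *GFI1-36N* by 9.04 rank units. That of *Usp18* was 0.18 with *GFI1-36S*, −45.99 with *GFI1-36N* and −38.67 with *GFI1-KD*, and the differences from *GFI1-36S* were −46.17 and −38.85. The *GFI1-KD* change of *Bst2* was 0.79 when ranked by summit height, and its summit height itself was 0.957 times that with vehicle (0.786 to 1.16). Both *GFI1-36S* changes rest on the library that stood apart, and the 0.18 of *Usp18* did not keep its sign under other settings.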

How the results depend on the processing

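The count of members ranked lower stayed at 10 of 10 in *GFI1-36N* under 10 alternatives and ran from 7 to 8 of 9 in *GFI1-KD* and from 7 to 9 of 9 in *GFI1-36S* mice, the exchange left out. The median change ran from −25.87 to −21.0, from −26.53 to −18.59 and from −23.25 to −18.85. A lower summit height was found at 8 of 8 members in *GFI1-KD* and, the exchange left out, *GFI1-36S* mice under each alternative run. In *GFI1-36N* mice it was found at 7 of 9 members with the 3 kb window, 6 of 7 with equal numbers of top peaks and 8 of 9 otherwise. With the 20354 top peaks of each list, 3 members rather than 1 had a peak with vehicle alone in *GFI1-36N* mice. With the *GFI1-36S* treatments exchanged, the median change was 22.4, 1 member ranked lower, 0 had a lower summit height and 0 had a peak with vehicle alone, as the construction of this alternative requires. Of single genes, the *Usp18* change in *GFI1-36S* mice turned to −0.56 with the 3 kb window, −3.75 by −log10 p, −7.23 by summit height, −2.48 with all biotypes, −0.09 on autosomes and −0.16 with the full annotation. With equal numbers of top peaks, *Rtp4* in *GFI1-36S* turned to 0.13 and *Mx1* in *GFI1-KD* mice to 0.05, and the cause was not tested. *Bst2* in *GFI1-KD* mice was 0.79 by summit height, against 4.42. The change of *Isg15* in *GFI1-36N* was −4.92 with the 3 kb window. Counting *Cmpk2* and *Rsad2* once was not run, since they share no promoter peak. No paired analysis was possible because the groups compared have 1 library each and share 1 replicate number, and no replicate could be left out. A fit over the 3 genotypes, with genotype as a term, was not run. The weakest peaks limit the depth: a gene with no listed peak may still be acetylated.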
